A study of Mus musculus with 60 samples.

Results

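Amino acid transporter genes were examined in the livers of 60 mice given the dioxin 2,3,7,8-tetrachlorodibenzo-p-dioxin (TCDD) or corn oil. The set was defined by gene symbol. It holds every measured feature whose mouse symbol starts with Slc1a, Slc3a, Slc6a, Slc7a, Slc36a, Slc38a or Slc43a, without Slc7a11, Slc1a2 and Slc1a4. This gave 61 members among 21115 features, out of 64 rows of the 7 families. The rule names symbols and sets no threshold on a value. Because it follows symbols, 2 members, Slc7a6os and Slc6a19os, are opposite-strand genes and not transporters, and several Slc6a members carry monoamines, creatine, taurine or betaine.

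All animals were labelled as male mice on a C57BL/6J background, 12 to 15 weeks old, that carry a transgenic variant of the aryl hydrocarbon receptor (AHR), the ligand-activated transcription factor that binds TCDD. The 3 lines are named rWT, DEL and INS. The sources used here do not say how the variants differ, which promoter drives the transgene or whether the mouse receptor is still present. Each mouse received a single gavage of corn oil, or of TCDD dissolved in it, with doses of 125, 250, 500 and 1000 µg/kg, and the liver was taken after 96 hours. The rWT groups held 5 corn oil mice and 3, 3, 4 and 2 TCDD mice in order of rising dose. The DEL groups held 5 and 4, 4, 4 and 4, and the INS groups 5 and 4, 4, 4 and 5. Each animal was measured on its own array, so the replicates are separate mice.

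Amino acids cross membranes through several unrelated carrier families. SLC3A2 (4F2hc, CD98) is a heavy chain that brings light chains of the SLC7 family to the plasma membrane, among them SLC7A5 (LAT1) and SLC7A8 (LAT2), which exchange large neutral amino acids, and SLC7A6 and SLC7A7, which exchange cationic for neutral amino acids. SLC7A1 and SLC7A2 carry cationic amino acids without a heavy chain, and the SLC38 family and SLC1A5 carry glutamine and other small neutral amino acids. SLC43A1 and SLC43A2 are facilitators of large neutral amino acids, and SLC36A1 and SLC36A2 work with protons. The liver is the main site of amino acid breakdown, and hepatocytes take up alanine, glutamine and arginine from the blood.

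The promoter windows of the heavy chain and of 3 of its light chains are shown because these 4 genes rose together with TCDD in rWT and DEL livers. The light chain gene Slc7a5 also rose in both lines, and its window is not shown. The windows are RefSeq sequences of build GRCm38.p6, from 250 bases before to 50 bases after the first listed start of each gene. They lie at chr19:8713848-8714147 on the minus strand for Slc3a2, chr8:106168604-106168903 on the plus strand for Slc7a6, chr14:54417895-54418194 on the minus strand for Slc7a7 and chr14:54781837-54782136 on the minus strand for Slc7a8. Capitals mark matches on either strand to GCGTG, the core of the dioxin response element that AHR binds, or to TGATGNAA, the C/EBP-ATF response element of the amino acid response. Each is written 5′ to 3′ on the strand of the gene.
Slc3a2: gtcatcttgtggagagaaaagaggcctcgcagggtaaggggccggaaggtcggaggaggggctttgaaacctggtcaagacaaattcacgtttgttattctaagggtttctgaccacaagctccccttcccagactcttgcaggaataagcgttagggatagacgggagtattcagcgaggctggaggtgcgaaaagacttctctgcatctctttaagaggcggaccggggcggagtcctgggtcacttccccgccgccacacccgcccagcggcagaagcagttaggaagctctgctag
Slc7a6: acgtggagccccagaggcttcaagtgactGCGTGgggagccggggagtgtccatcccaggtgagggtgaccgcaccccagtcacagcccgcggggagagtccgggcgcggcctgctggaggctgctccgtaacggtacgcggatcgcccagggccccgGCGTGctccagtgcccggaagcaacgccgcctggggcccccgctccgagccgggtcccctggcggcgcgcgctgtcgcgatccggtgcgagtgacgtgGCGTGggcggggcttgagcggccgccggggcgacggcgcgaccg
Slc7a7: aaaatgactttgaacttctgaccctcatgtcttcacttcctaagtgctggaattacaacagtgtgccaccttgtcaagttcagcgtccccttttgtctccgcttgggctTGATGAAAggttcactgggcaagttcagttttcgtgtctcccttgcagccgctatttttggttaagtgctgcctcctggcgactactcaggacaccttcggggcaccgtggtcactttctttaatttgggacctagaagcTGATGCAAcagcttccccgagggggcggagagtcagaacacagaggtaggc
Slc7a8: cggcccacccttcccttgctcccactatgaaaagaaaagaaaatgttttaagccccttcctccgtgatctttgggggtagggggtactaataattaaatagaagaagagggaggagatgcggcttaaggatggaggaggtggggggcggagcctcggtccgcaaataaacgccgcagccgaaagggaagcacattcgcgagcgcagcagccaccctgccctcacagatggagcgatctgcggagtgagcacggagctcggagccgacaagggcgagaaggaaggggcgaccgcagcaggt
The Slc7a6 window held the AHR core 3 times, with first bases at -221, -92 and 6 from the start. The Slc7a7 window held the C/EBP-ATF element 2 times, at -141 and -1. The Slc3a2 and Slc7a8 windows held neither set of letters, and no matches overlapped. Among all 32851 windows of this length, 32.4% held the AHR core and 3.97% the C/EBP-ATF element. Among the 65 windows of the 44 members found in the table, the shares were 35.4% and 4.62%. A match describes the letters and does not show that a factor binds there.

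Values are the deposited log2 expression values, so a difference of 1 is a doubling. Array levels followed the line, with array means of between 6.01 and 6.07 for rWT, between 6.23 and 6.30 for DEL and between 5.58 and 5.74 for INS, so corn oil levels were not compared between lines. Cyp1a1, the standard AHR target gene, stood at 8.63 or lower on all corn oil arrays and at 12.7 to 13.1, 12.8 to 13.1 and 11.7 to 12.7 on the TCDD arrays of rWT, DEL and INS. On 4 rWT arrays, corn oil replicates 3, 4 and 5 and TCDD 500 replicate 4, Xist stood at 10.7 to 11.4, against 2.41 to 3.44 on the other 56 arrays, which goes against the male label. Most counts and the leading members of rWT are therefore given with and without these 4 arrays. A further named gene is given both ways where its call, direction or size, by over 1.5 times, changes without them. Without them rWT has 2 corn oil and 11 TCDD arrays. On rWT corn oil replicate 5, the mean of 5 exocrine pancreas markers was 9.02, against 6.41 on the next highest array.

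Across the 61 members, TCDD moved many transporter genes in both directions in rWT and DEL livers and 1 in INS livers. The effect is the mean of the 4 dose groups minus corn oil, and a gene is said to rise or fall where limma's moderated test gave a Benjamini-Hochberg adjusted p under 0.05 over all features. In rWT, 21 members (34.4%) rose and 15 (24.6%) fell, while 20.3% of all features rose and 20.4% fell. Without the 4 arrays, 17 (27.9%) rose and 13 (21.3%) fell, against 16.9% and 19.1% of all features. In DEL, 17 (27.9%) rose and 10 (16.4%) fell, against 16.7% and 17.6%, so the share that fell was near that of all features. In INS, 1 member rose, Slc3a2, and 0 fell, against 0.431% and 0.137% of all features. There 5 members had an unadjusted p under 0.05, a threshold that a share of 0.05 passes by chance alone. The share of all features at that unadjusted threshold was not counted. The median effect of the members was -0.08 in rWT, -0.02 in DEL and -0.02 in INS, beside -0.07, -0.05 and -0.01 for all features. Counts by role or by related list, given below, are to be read beside these shares of all features that rose or fell.

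The split into higher and lower depends on the scaling. When each array was centred on its own median, the median of all features moved to -0.29 in rWT and -0.31 in DEL. In rWT 16 members then rose and 31 fell, beside 2782 and 10953 of the 21115 features. In DEL 12 members rose and 30 fell, beside 2186 and 11649 features, so most features fell in both lines. Of the members called with the deposited values, 1 changed sign under that centring, Slc38a9 in DEL, and none did after quantile normalization across arrays.

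Of the 61 members, 15 (24.6%) rose in both rWT and DEL, where 13.7% of all features did, and 8 (13.1%) fell in both, beside 11.3% of all features. Without the 4 arrays 14 (23.0%) rose in both and 7 (11.5%) fell in both, beside 12.7% and 10.7%, so the share that fell in both was near that of all features. Slc1a3 was the 1 member that fell in rWT and rose in DEL, where 0.0663% of all features were called in opposite directions. A further 12 were called in rWT alone, 3 in DEL alone, and 22 in no line. The shares of all features in these sets, and the sets without the 4 arrays, were not counted. The counts therefore describe the members only. The members called in no line had effects between -0.22 and 0.21. Of the 36 members called in rWT, 26 were also called, in the same direction, without the 4 arrays, 10 were not, and 0 changed sign. The 61 members covered the whole range of the arrays, with means over the 60 arrays from 2.68 to 12.6. Among the 30 members with a mean under 4.5, the largest effect in any line was 0.92 in size. Of the 31 members at 4.5 or more, 19 (61.3%) rose and 9 (29.0%) fell in rWT, where 30.2% of all features at such levels rose and 21.4% fell. Leaving the 4 arrays out, 16 (51.6%) rose and 5 (16.1%) fell, beside 25.4% and 18.2%. In DEL 16 (51.6%) rose and 5 (16.1%) fell, beside 24.9% and 20.2%, so the share that fell there was no higher than among all features at such levels. Detection calls were not used here, so a low value cannot be told apart from background.

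**Figure D1:**
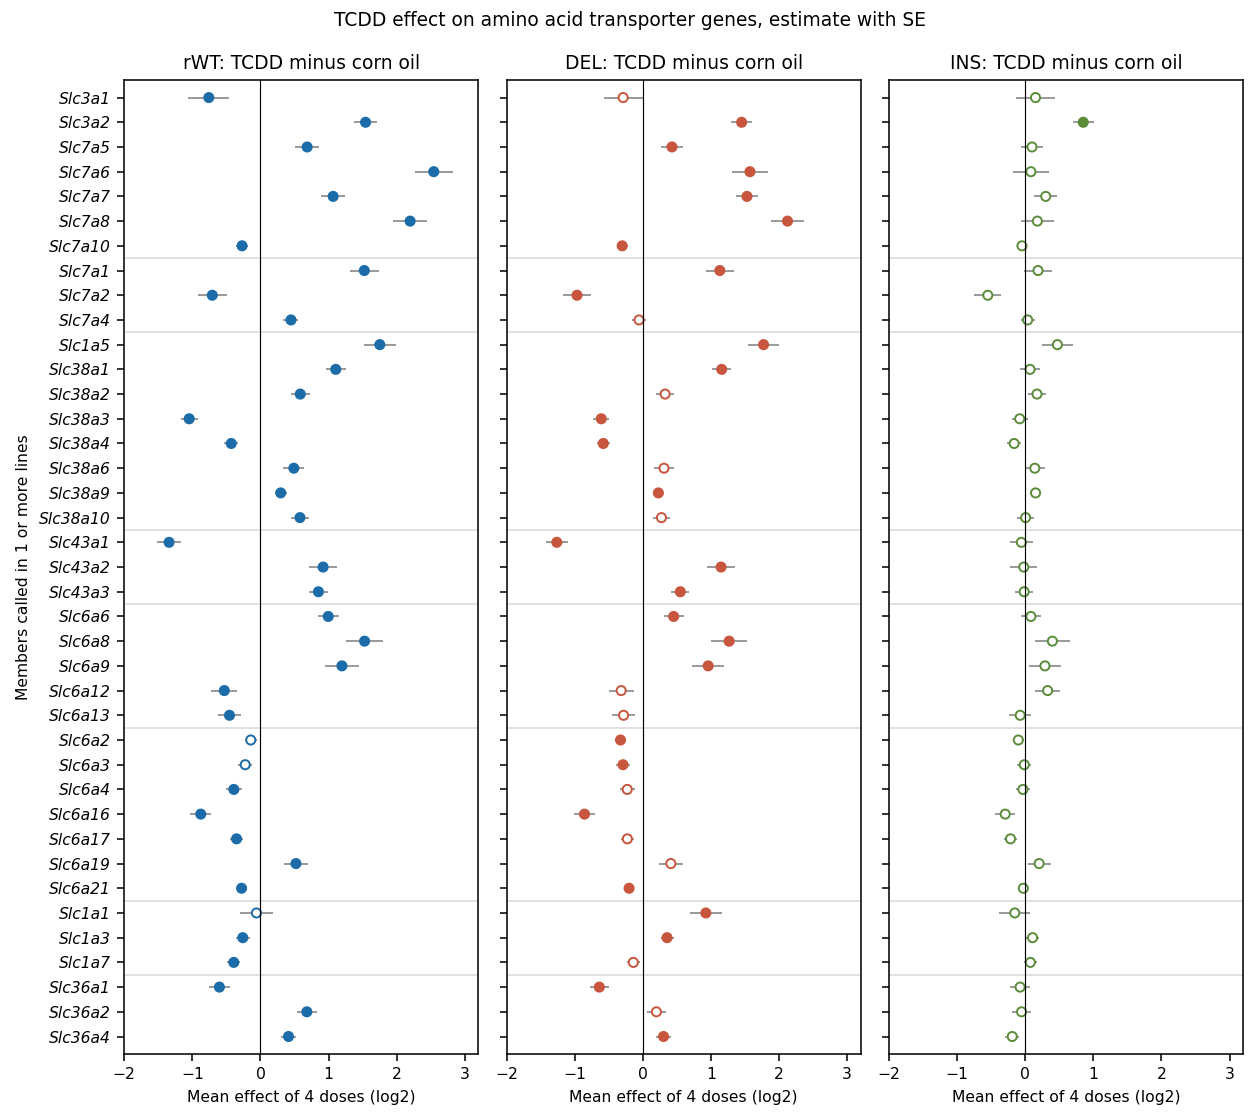
Mean TCDD effect (log2, average of 4 doses minus corn oil) with its SE for the 39 members called in at least 1 line, in panels for rWT, DEL and INS, grouped by role. Filled points are called at an adjusted p under 0.05. In INS the single filled point is Slc3a2, at 0.85.

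The heavy chain of the CD98 complex was the member that rose in all 3 lines. Slc3a2 stood at 10.7, 10.2, 10.9, 11.0 and 10.5 on the rWT corn oil arrays, and its rWT TCDD arrays ran from 10.9 to 12.5 with a median of 12.2. All but 1 of the 12 TCDD arrays lay above every corn oil array, and the exception was TCDD 500 replicate 4 at 10.9. The rise was 1.54 ± 0.17 (SE, adjusted p = 1.05e-10), a fold of 2.91, and 1.81 ± 0.21 without the 4 arrays. DEL corn oil arrays read 10.8, 10.5, 10.8, 10.9 and 10.8, and the 16 DEL TCDD arrays 11.7 to 12.7 with a median of 12.2, with no overlap. The rise in DEL was 1.45 ± 0.16 (adjusted p = 2.62e-10).

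INS livers showed a smaller rise of Slc3a2. Corn oil arrays of INS read 10.5, 10.3, 10.0, 10.1 and 10.5. At 125 µg/kg the 4 arrays read 10.9, 11.2, 11.1 and 11.6, and at 250 µg/kg 11.2, 10.5, 11.4 and 11.4. The arrays at 500 µg/kg read 11.2, 10.5, 11.7 and 11.4, and those at 1000 µg/kg 10.7, 11.1, 11.2, 11.2 and 11.2. Of these 17 TCDD arrays, 15 lay above every corn oil array of the line. The rise was 0.85 ± 0.16 (adjusted p = 0.00108), a fold of 1.80, and at each dose the estimate lay between 0.78 and 0.89. It was 0.69 ± 0.23 smaller than in rWT on the log2 scale (adjusted p = 0.0235). The INS minus DEL difference was -0.60 ± 0.22 and missed the threshold (adjusted p = 0.0639).

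Among the light chains, Slc7a6 had the largest rise of all members in rWT. Its rWT corn oil arrays stood at 4.18, 4.11, 3.97, 4.53 and 5.66, the last being the array with high pancreas markers, and its TCDD arrays at 4.20 to 7.90 with a median of 7.11. TCDD 500 replicate 4, at 4.20, was the 1 TCDD array inside the corn oil range. The rise was 2.54 ± 0.28 (adjusted p = 1.96e-10), a fold of 5.83, and 3.05 ± 0.29 without the 4 arrays. DEL went from 4.59, 5.14, 5.12, 5.26 and 4.51 to between 4.98 and 7.28 (median 6.64), a rise of 1.57 ± 0.27 (adjusted p = 4.53e-06). In INS, corn oil arrays at 3.64, 3.72, 4.36, 3.60 and 3.73 and TCDD arrays at 3.45 to 4.90 overlapped, with an effect of 0.08 ± 0.27. The DEL minus rWT difference of -0.97 ± 0.39 missed the threshold (adjusted p = 0.267), but without the 4 arrays it was -1.48 ± 0.35 and was called (adjusted p = 0.0182).

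Slc7a8, the LAT2 light chain, rose in rWT and DEL. Corn oil arrays of rWT read 6.95, 6.77, 6.82, 6.46 and 6.58, and TCDD arrays 7.14 to 9.47 with a median of 9.02, with no overlap between the groups. The effect was 2.20 ± 0.25 (adjusted p = 7.57e-10), a fold of 4.59, and 2.16 ± 0.33 without the 4 arrays. In DEL, corn oil arrays at 7.19, 6.95, 7.05, 7.17 and 7.18 lay below all 16 TCDD arrays, which ran from 8.10 to 9.77 (median 9.35), and the effect was 2.12 ± 0.24 (adjusted p = 8.39e-10). The DEL minus rWT difference was -0.07 ± 0.35. INS arrays overlapped, at 7.10, 6.62, 6.62, 5.77 and 6.43 with corn oil and 5.87 to 7.62 with TCDD, and the effect was 0.18 ± 0.24.

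Slc7a7, the y+LAT1 light chain, had its larger estimate in DEL. Its DEL corn oil arrays read 6.46, 6.72, 6.59, 6.99 and 6.54 and all 16 TCDD arrays lay above them, at 7.14 to 8.72 (median 8.21), a rise of 1.53 ± 0.17 (adjusted p = 2.68e-10). In rWT the corn oil arrays read 6.46, 6.10, 6.60, 6.60 and 5.91 and the TCDD arrays 6.30 to 7.94 (median 7.44), a rise of 1.07 ± 0.17, or 1.20 ± 0.22 without the 4 arrays. The DEL minus rWT difference was 0.46 ± 0.24 (adjusted p = 0.443). Slc7a7 is also expressed in macrophages. Of 8 macrophage markers, 6 rose and 1 fell in rWT (6 and 0 without the 4 arrays), 8 rose in DEL and 0 were called in INS. Their mean ran from 7.17 to 7.97 in rWT corn oil and 7.93 to 9.94 in rWT TCDD livers, from 7.40 to 7.65 and 8.61 to 10.5 in DEL, and from 6.91 to 7.33 and 6.79 to 8.06 in INS. The rWT ranges without the 4 arrays were 7.19 to 7.27 and 9.52 to 9.94. Their part in the rise of Slc7a7 was not tested, and in bulk tissue a change in the number of cells of a type and in RNA per cell cannot be told apart.

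Of the 11 heavy and light chain genes in all, 5 rose and 2 fell in rWT and 5 rose and 2 fell without the 4 arrays, with Slc7a12 among them in place of Slc7a10, and 5 rose and 1 fell in DEL. Of all features, 20.3% rose and 20.4% fell in rWT (16.9% and 19.1% without the 4 arrays), and 16.7% and 17.6% in DEL. Slc7a5, the LAT1 light chain, rose by 0.69 ± 0.17 in rWT and 0.43 ± 0.17 in DEL. Slc3a1, the heavy chain of the cystine and dibasic amino acid system, fell by 0.76 in rWT (SE 0.30, adjusted p = 0.038). Its effect without the 4 arrays was -1.18 ± 0.42 (adjusted p = 0.0253), and all 11 TCDD arrays lay below both corn oil arrays. Its DEL effect was -0.29 ± 0.29. The 3 genes left out of the set by name were all called in rWT and DEL. Slc7a11, the cystine light chain, had effects of 4.56 ± 0.45 in rWT, 3.74 ± 0.43 in DEL and 0.43 ± 0.43 in INS. Slc1a4, a carrier of small neutral amino acids, had effects of 3.07 ± 0.34, 2.63 ± 0.32 and 1.04 ± 0.32, and the glutamate transporter gene Slc1a2 effects of -2.35 ± 0.39, -1.90 ± 0.37 and -0.11 ± 0.37. None of the 3 was called in INS.

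**Figure D2:**
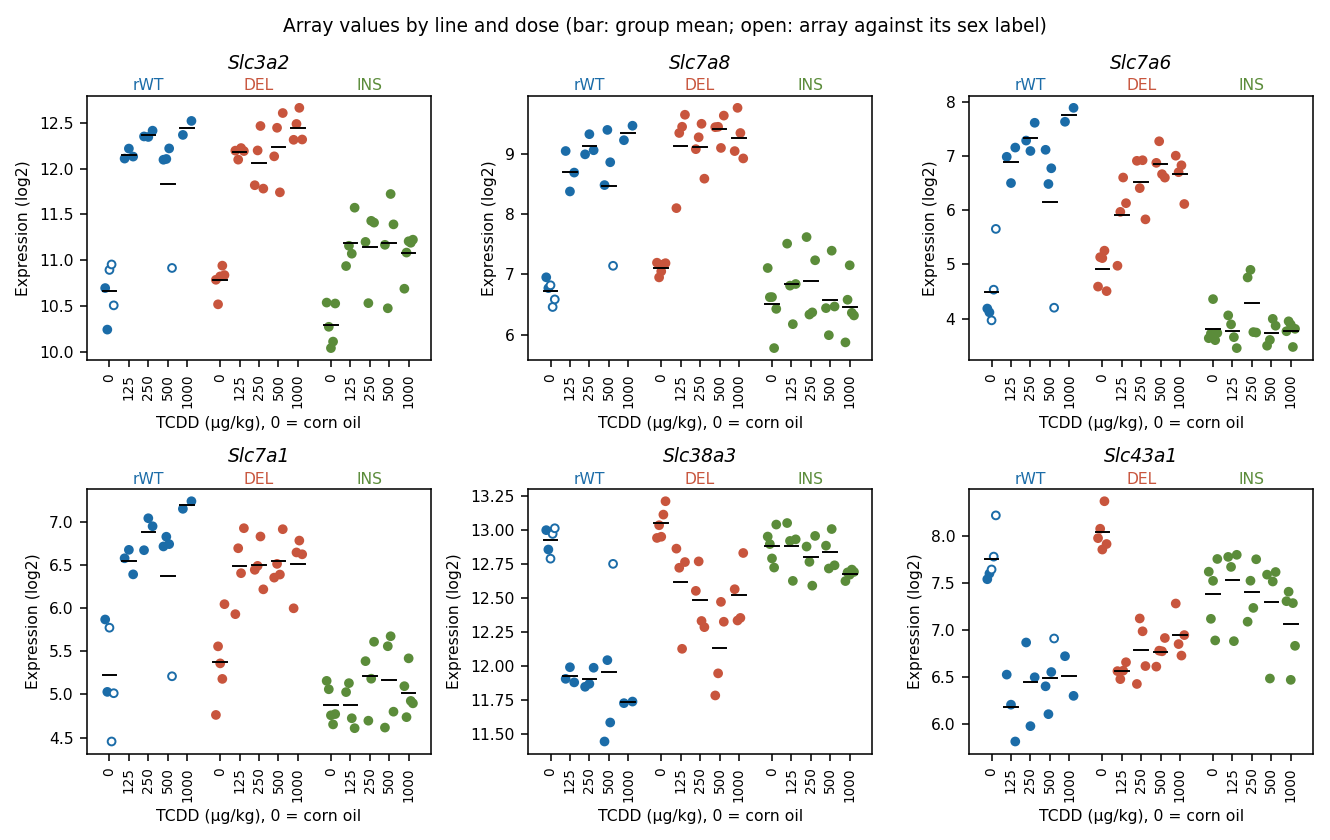
Expression (log2) of Slc3a2, Slc7a8, Slc7a6, Slc7a1, Slc38a3 and Slc43a1 on each of the 60 arrays, by line and TCDD dose in µg/kg. Bars are group means and open points the 4 rWT arrays that go against the male label. The open point at 500 µg/kg lies within or next to the corn oil values for Slc3a2, Slc7a6, Slc7a1 and Slc38a3.

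The 2 main cationic transporters of the CAT type moved in opposite directions. Slc7a1 (CAT1), the widely expressed form, read 5.87, 5.03, 5.77, 4.45 and 5.01 in rWT corn oil livers and 5.21 to 7.24 (median 6.73) with TCDD, where 11 of 12 arrays lay above all corn oil arrays. It rose by 1.52 ± 0.21 (adjusted p = 6.56e-08) in rWT, by 1.40 ± 0.25 without the 4 arrays, and by 1.13 ± 0.20 in DEL, where corn oil arrays at 4.76, 5.56, 5.36, 5.18 and 6.05 were exceeded by 14 of 16 TCDD arrays. Its INS effect was 0.19 ± 0.20. Slc7a2 (CAT2), the form known for the liver, stood at 11.7, 11.6, 11.7, 11.8 and 12.0 in DEL corn oil livers and at 10.2 to 11.6 with TCDD. It fell in DEL by 0.97 (SE 0.20, adjusted p = 0.00012).

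In rWT, Slc7a2 had an effect of -0.71 ± 0.21 (adjusted p = 0.00571), which without the 4 arrays was -0.43 ± 0.27 and no longer called (adjusted p = 0.216). The corn oil arrays behind it read 11.1, 11.3, 11.7, 11.7 and 12.0, the last 3 being those that go against the male label. In INS the mean effect was -0.55 ± 0.20 (adjusted p = 0.317). INS corn oil arrays read 11.5, 11.1, 11.2, 11.0 and 11.6 and those at 1000 µg/kg 10.3, 10.2, 9.87, 10.0 and 10.2, so the 5 arrays at the highest dose lay below all corn oil arrays. At that dose alone the effect was -1.18 ± 0.25 (adjusted p = 0.00606). Slc7a2 and Slc3a2 were the 2 members called at 1000 µg/kg in INS, 1 in each direction, where 0.564% of all features rose and 0.459% fell. This single-dose comparison was chosen after its values were seen.

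Glutamine and small neutral amino acid transporters also split. Of these 12 members, 6 rose and 2 fell in rWT (4 and 2 without the 4 arrays), and 3 rose and 2 fell in DEL. The shares of all features were 20.3% and 20.4% in rWT and 16.7% and 17.6% in DEL. Slc1a5 (ASCT2), the sodium-dependent glutamine exchanger, read 5.04, 6.06, 6.01, 5.77 and 7.17 in rWT corn oil livers and 6.49 to 8.39 (median 7.75) with TCDD. The value of 7.17 came from the array with high pancreas markers. The rise was 1.75 ± 0.24 (adjusted p = 3.85e-08), and 2.31 ± 0.28 without the 4 arrays. In DEL, corn oil arrays at 6.00, 6.17, 5.74, 5.79 and 5.77 lay below all TCDD arrays, which ran from 6.80 to 8.51, and the rise was 1.77 ± 0.23 (adjusted p = 1.43e-08). Its INS effect of 0.47 ± 0.23 missed the threshold (adjusted p = 0.633).

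Slc38a1 (SNAT1), another sodium-coupled glutamine carrier, rose with no overlap between groups in rWT and DEL. It stood at 4.90, 5.04, 5.15, 5.03 and 4.92 in rWT corn oil livers and at 5.22 to 6.68 (median 6.11) with TCDD, an effect of 1.10 ± 0.15 (adjusted p = 3.26e-08) or 1.20 ± 0.21 without the 4 arrays. The DEL arrays read 5.14, 5.40, 5.23, 5.09 and 5.09 with corn oil and 5.60 to 6.87 (median 6.33) with TCDD, an effect of 1.16 ± 0.14 (adjusted p = 5.31e-09). Its INS effect was 0.07 ± 0.14. Slc38a2 (SNAT2), which responds to amino acid supply in cultured cells, rose in rWT by 0.58 ± 0.14, and its DEL effect was 0.33.

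Slc38a3 (SNAT3), a glutamine carrier of hepatocytes, fell in rWT and DEL. Its rWT corn oil arrays read 13.0, 12.9, 12.8, 13.0 and 13.0 and its TCDD arrays 11.4 to 12.7 (median 11.9), with every TCDD array below every corn oil array. TCDD 500 replicate 4 was the highest of the TCDD arrays, and without the 4 arrays the range was 11.4 to 12.0. The gene fell by 1.05 (SE 0.12, adjusted p = 1.13e-09), and the effect was -1.12 ± 0.15 without the 4 arrays. DEL corn oil arrays at 12.9, 13.0, 12.9, 13.1 and 13.2 lay above all 16 TCDD arrays, at 11.8 to 12.86 (median 12.4), with the lowest corn oil array at 12.94, and the effect was -0.61 ± 0.12 (adjusted p = 3.78e-05). INS arrays overlapped and the effect was -0.08 ± 0.12. Slc38a4 (SNAT4), a liver carrier of neutral and cationic amino acids, fell by 0.43 in rWT and by 0.58 in DEL, and its INS effect was -0.16.

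All 3 members of the SLC43 family were called in rWT and in DEL, 1 down and 2 up. Slc43a1 (LAT3), a facilitator of branched-chain and other large neutral amino acids, read 7.54, 7.60, 7.64, 7.78 and 8.21 in rWT corn oil livers and 5.82 to 6.91 (median 6.45) with TCDD. DEL read 7.97, 8.07, 7.85, 8.36 and 7.91 with corn oil and 6.43 to 7.28 (median 6.75) with TCDD. No TCDD array of either line reached a corn oil array. The effects were -1.34 ± 0.17 in rWT (adjusted p = 1.14e-08; -1.19 ± 0.25 without the 4 arrays) and -1.26 ± 0.17 in DEL (adjusted p = 2.26e-08), against -0.06 ± 0.16 in INS.

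Slc43a2 (LAT4), its close relative, moved the other way. It stood at 7.47, 6.83, 6.74, 6.90 and 7.79 in rWT corn oil livers and at 7.15 to 8.82 (median 8.02) with TCDD, where 9 of 12 arrays lay above all corn oil arrays. The rise was 0.92 ± 0.21 (adjusted p = 0.000367), and 0.98 ± 0.28 without the 4 arrays. In DEL, corn oil arrays at 7.25, 7.25, 7.16, 7.11 and 7.37 lay below all TCDD arrays (7.51 to 9.08), and the rise was 1.15 ± 0.20. Slc43a3, whose human counterpart carries purine bases, rose by 0.85 ± 0.14 in rWT and 0.55 ± 0.13 in DEL.

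Of 7 SLC6 transporters of glycine, GABA, taurine, betaine and creatine, 3 rose and 2 fell in rWT (3 and 1 without the 4 arrays), and 3 rose and 0 fell in DEL. Among all features, 20.3% rose and 20.4% fell in rWT, and 16.7% and 17.6% in DEL. Slc6a9 (GLYT1), a glycine transporter, read 10.1, 9.76, 9.60, 9.55 and 9.62 in rWT corn oil livers. Its TCDD arrays ran from 9.06 to 11.3 with a median of 11.0, and TCDD 500 replicate 4, at 9.06, was the 1 array below the corn oil range while the other 11 lay above it. The rise was 1.20 ± 0.25 (adjusted p = 8.96e-05) in rWT, 1.12 ± 0.30 without the 4 arrays, and 0.96 ± 0.24 (adjusted p = 0.00102) in DEL. Slc6a6 (TAUT), the taurine transporter, rose by 0.99 ± 0.15 in rWT and 0.45 ± 0.15 in DEL.

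Slc6a8 (CRT), the creatine transporter, rose in rWT and DEL, and its rWT groups overlapped. It stood at 6.66, 6.88, 6.98, 5.95 and 9.09 in rWT corn oil livers and at 7.30 to 8.99 (median 8.76) with TCDD, so that corn oil replicate 5, the array with high pancreas markers, lay above every TCDD array. The rise was 1.53 ± 0.27 (adjusted p = 8.42e-06), and without the 4 arrays 1.96 ± 0.27, where all 11 TCDD arrays lay above both corn oil arrays. DEL went from 7.26, 7.05, 7.15, 7.22 and 7.89 to 7.86 to 9.04 (median 8.60), a rise of 1.27 ± 0.26 (adjusted p = 9.8e-05). Its INS effect was 0.40 ± 0.26. Slc6a12 and Slc6a13, which carry betaine and GABA, fell in rWT by 0.53 and 0.46 and had DEL effects of -0.32 and -0.28. With the 4 arrays left out the rWT effects were -0.49 ± 0.24 (adjusted p = 0.102) and -0.35 ± 0.25 (adjusted p = 0.285) and were not called, while all 11 TCDD arrays lay below both corn oil arrays for Slc6a12 and 7 of 11 did for Slc6a13.

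Of the 13 other SLC6 members, 1 rose and 4 fell in rWT (0 and 5 without the 4 arrays) and 0 rose and 4 fell in DEL. Over all features, 20.3% rose and 20.4% fell in rWT (16.9% and 19.1% without the 4 arrays), and 16.7% and 17.6% in DEL. Slc6a16, an orphan member, fell in both, with effects of -0.88 ± 0.16 and -0.86 ± 0.15. Among the 4 members of the SLC36 family, the lysosomal Slc36a1 fell, with effects of -0.60 ± 0.15 in rWT and -0.64 ± 0.14 in DEL. Slc36a4 rose by 0.41 ± 0.11 and 0.30 ± 0.11 in rWT and DEL. The rWT effects without the 4 arrays were -1.12 ± 0.19 for Slc36a1 and 0.64 ± 0.15 for Slc36a4. Slc36a2 rose in rWT by 0.68 ± 0.15, and its DEL effect was 0.20.

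Among the 4 glutamate transporters, 0 rose and 2 fell in rWT (0 and 1 without the 4 arrays) and 2 rose and 0 fell in DEL. The shares over all features were 20.3% and 20.4% in rWT and 16.7% and 17.6% in DEL. Slc1a3 (EAAT1) read 5.12, 5.0, 5.15, 4.86 and 5.31 in rWT corn oil livers and 4.52 to 5.39 (median 4.81) with TCDD. In DEL it read 4.80, 4.69, 4.92, 5.07 and 4.89 with corn oil and 4.83 to 5.79 (median 5.21) with TCDD. The effect was -0.26 ± 0.10 in rWT (adjusted p = 0.0318) and 0.36 ± 0.09 in DEL (adjusted p = 0.00245). It was the 1 member called in the DEL minus rWT difference, at 0.62 ± 0.14 (adjusted p = 0.0106), where 0.625% of all features were positive and 0.488% negative. Without the 4 arrays the difference was 0.59 ± 0.17 (adjusted p = 0.0767) and the rWT effect -0.24 ± 0.14 (adjusted p = 0.2), so neither was called. Slc1a3 is also expressed in macrophages, whose markers rose in both lines as given for Slc7a7, and their part here was not tested. Slc1a1 (EAAT3) rose in DEL by 0.92 ± 0.23 (adjusted p = 0.00119), with TCDD arrays from 3.79 to 5.88 against corn oil arrays from 3.52 to 3.96. Its rWT effect was -0.06 ± 0.24, and the DEL minus rWT difference of 0.98 ± 0.33 missed the threshold (adjusted p = 0.164). Its rWT estimate turned without the 4 arrays to 0.36 ± 0.34 (adjusted p = 0.416), with 9 of 11 TCDD arrays above both corn oil arrays, and the DEL minus rWT difference was 0.56 ± 0.40 (adjusted p = 0.606).

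No member had a slope on dose that passed the test. The slope is the change per doubling of TCDD dose among the 4 TCDD groups. It was called for 0 members in each line by limma, against 0.0284% of all features in rWT, 0% in DEL and 0.0426% in INS. At an unadjusted p under 0.05 there were 5 members in rWT, 6 in DEL and 4 in INS. The share of all features at that unadjusted threshold was not counted, and a share of 0.05 passes it by chance alone. Against corn oil, the rWT groups at 125, 250, 500 and 1000 µg/kg gave 21, 29, 20 and 26 called members of 61, in either direction, where 23.9%, 30.9%, 23.4% and 28.5% of all features were called. Without the 4 arrays the rWT counts were 24, 26, 22 and 26, beside 5178, 6486, 5293 and 6229 of the 21115 features. In DEL 16, 20, 22 and 24 members were called, beside 17.2%, 22.5%, 27.5% and 27.0% of all features. These counts share the corn oil arrays of a line. In DEL, for example, Slc7a8 stood at 7.11 ± 0.11 (SD, n = 5) with corn oil and 9.14 ± 0.70, 9.11 ± 0.39, 9.41 ± 0.22 and 9.27 ± 0.37 at the 4 doses (n = 4 each). Slc7a6 in DEL stood at 4.92 ± 0.35 and then 5.92 ± 0.69, 6.52 ± 0.52, 6.86 ± 0.30 and 6.67 ± 0.39, a slope of 0.26 ± 0.12 per doubling (adjusted p = 0.409). The slope of Slc7a2 in INS was -0.30 ± 0.08 (adjusted p = 0.252), the smallest adjusted p of a slope among the members in INS.

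**Figure D3:**
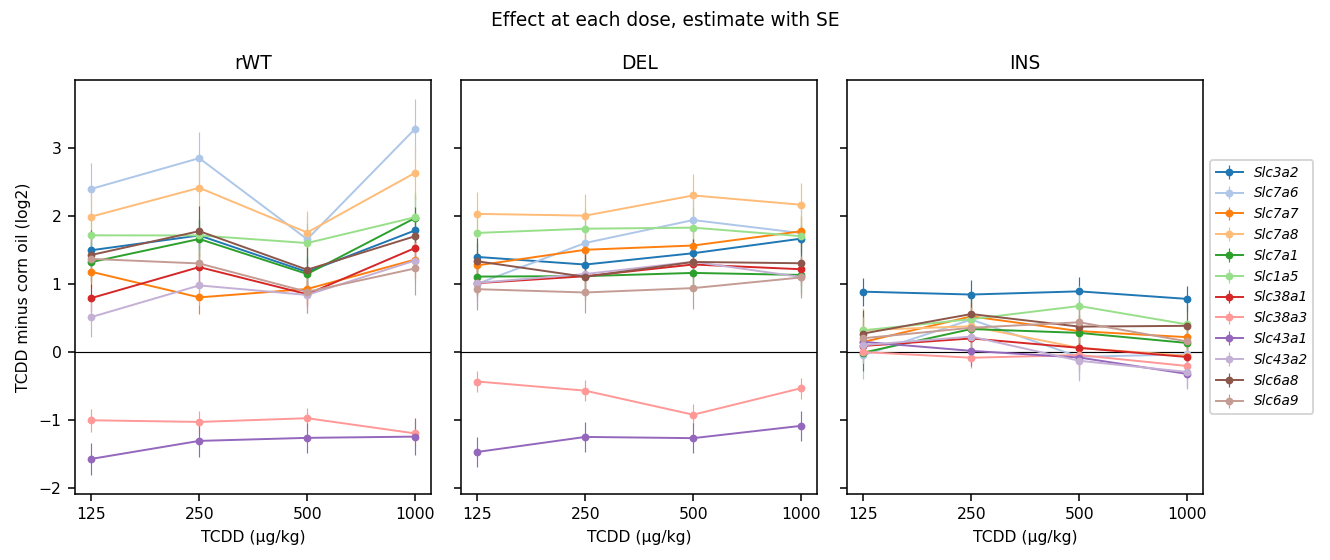
TCDD effect (log2, dose group minus corn oil) with its SE at 125, 250, 500 and 1000 µg/kg for the 12 members described in full, in panels for rWT, DEL and INS. The dip of several genes at 500 µg/kg in rWT falls in the group that holds TCDD 500 replicate 4, and in INS the highest line at 125 µg/kg is Slc3a2 at 0.89.

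The effect in INS differed from that in the other lines for many members. For INS minus rWT, 6 members (9.84%) were positive and 16 (26.2%) negative, against 8.45% and 12.5% of all features. Leaving the 4 arrays out, 6 (9.84%) were positive and 15 (24.6%) negative, against 10.3% and 12.1%. For INS minus DEL, 3 (4.92%) were positive and 10 (16.4%) negative, against 5.43% and 8.68%. The gap was widest for Slc7a6 (-2.46 ± 0.39 against rWT and -1.49 ± 0.38 against DEL) and Slc7a8 (-2.02 ± 0.35 and -1.95 ± 0.34). For some of the members that fell, the difference was called and positive, as for Slc43a1 (1.28 ± 0.24 and 1.21 ± 0.23) and Slc38a3 (0.97 ± 0.17 and 0.53 ± 0.17). With arrays centred on their medians, 14 members were positive and 12 negative against rWT, beside 4568 and 1766 of the 21115 features. Against DEL the split was 16 and 8, beside 5091 and 1332 features. The members nearest the size of 1 that set the full description were Slc38a3 (-1.05) inside and Slc6a6 (0.99) outside in rWT, Slc7a1 (1.13) inside and Slc7a2 (-0.97) outside in DEL, and Slc3a2 (0.85) outside in INS.

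**Figure D4:**
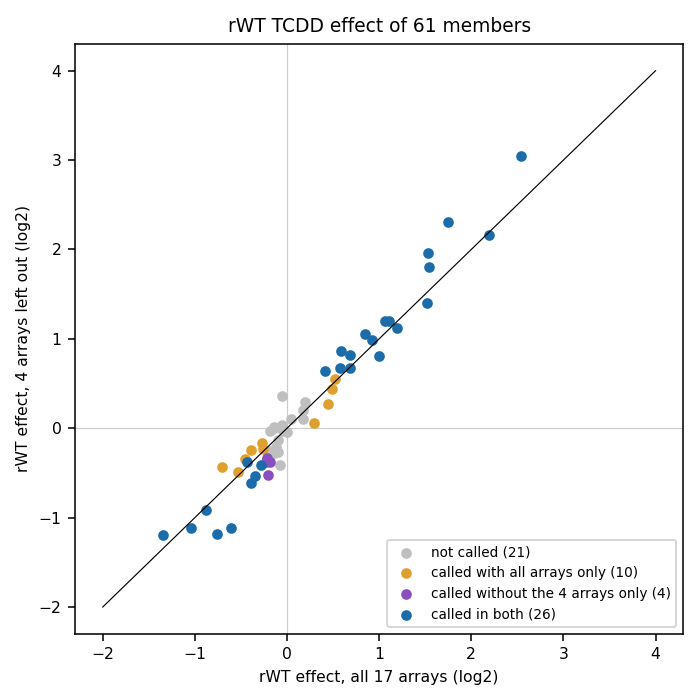
Mean TCDD effect (log2) of the 61 members in rWT with all 17 arrays (x axis) and with 4 arrays left out (y axis), with the line of equality. Of the points, 26 are called both ways, 10 with all arrays only and 4 without the 4 arrays only, and 21 are not called.

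Genes of the amino acid deprivation response that were called had all risen. Of all features, 20.3% rose in rWT, 16.7% in DEL and 0.431% in INS. Of 16 measured, 9 rose and 0 fell in rWT, with or without the 4 arrays, 13 rose and 0 fell in DEL, and 2, Atf3 and Mthfd2, rose in INS, where 0 fell. The median effect of the list was 0.53 in rWT (1.09 without the 4 arrays), 0.82 in DEL and 0.25 in INS, so the order of rWT and DEL turns with those arrays. Asns, asparagine synthetase, rose by 3.45 ± 0.47 in rWT and 1.52 ± 0.45 in DEL. Ddit4, an inhibitor of mTORC1 signalling, rose by 2.87 ± 0.36 and 2.57 ± 0.34, and the transcription factor gene Atf3 by 2.20 ± 0.34 and 3.14 ± 0.32. Asns, Ddit4 and Atf3 had rWT effects without the 4 arrays of 2.88 ± 0.44, 3.18 ± 0.45 and 2.77 ± 0.42. Atf4 itself, whose protein is known to be controlled at translation, had effects of 0.30 ± 0.13 and 0.17 ± 0.13 and was not called.

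Enzymes that use the transported amino acids mostly fell in rWT and DEL, where 20.4% and 17.6% of all features fell. Among 9 measured enzymes of glutamine, glutamate and alanine, 1 rose and 7 fell in rWT (1 and 6 without the 4 arrays), and 1 rose and 7 fell in DEL. Glul, glutamine synthetase, had effects of -1.48 ± 0.28 and -1.42 ± 0.27, and Gpt, alanine aminotransferase, -1.79 ± 0.19 and -1.35 ± 0.18, while Aldh18a1, which starts proline synthesis, rose by 1.72 ± 0.22 (2.44 ± 0.26 without the 4 arrays) and 2.06 ± 0.21. Among 13 enzymes of arginine and essential amino acids, 3 rose and 8 fell in rWT (2 and 8 without the 4 arrays) and 1 rose and 9 fell in DEL. Hal, histidine ammonia-lyase, had effects of -3.0 ± 0.26 and -1.73 ± 0.25, and the arginase gene Arg2 rose by 1.20 ± 0.24 and 1.34 ± 0.23. The rWT effect of Arg2 was 2.02 ± 0.27 without the 4 arrays. Among 15 enzymes of glycine, serine, taurine, creatine and betaine, 1 rose and 11 fell in rWT (1 and 10 without the 4 arrays) and 1 rose and 10 fell in DEL. The creatine enzymes split, with Gatm up by 0.61 ± 0.16 and 0.99 ± 0.15 and Gamt at -2.28 ± 0.24 and -1.21 ± 0.23. In INS, 0 genes of these 3 lists were called.

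Of 22 amino acid and peptide carriers of other families, 4 rose and 9 fell in rWT (3 and 7 without the 4 arrays) and 1 rose and 6 fell in DEL. For these and the next lists, 20.3% of all features rose and 20.4% fell in rWT. In DEL these shares were 16.7% and 17.6%. Of 19 genes of mTORC1 amino acid sensing, 2 rose and 6 fell in rWT (4 and 5 without the 4 arrays) and 1 rose and 4 fell in DEL. Rragd, a Rag GTPase gene, rose by 1.13 ± 0.32 and 1.37 ± 0.31, and its rWT effect was 1.97 ± 0.31 without the 4 arrays. Of 5 accessory proteins of plasma membrane transporters, 1 rose and 1 fell in each of these lines. Markers of some other liver cells moved as well. Of 6 neutrophil markers, 5 rose and 0 fell in rWT and in DEL, of 7 stellate cell markers 5 and 6 rose, and of 7 hepatocyte markers 4 and 6 fell. The rWT counts without the 4 arrays were 5, 6 and 6, while 0 of these were called in INS. Of 5 lymphocyte markers, 1 rose and 2 fell in rWT (0 and 0 without the 4 arrays) and 0 were called in DEL. Among 5 endothelial markers, 1 rose and 1 fell in rWT, and 2 rose and 1 fell in DEL. Of 4 cholangiocyte markers, 0 were called in rWT (1 rose without the 4 arrays) and 0 in DEL. The mean of the hepatocyte markers ran from 12.7 to 12.9 in rWT corn oil and 12.1 to 12.8 in rWT TCDD livers (12.8 to 12.9 and 12.1 to 12.4 without the 4 arrays), and from 12.9 to 13.0 and 12.3 to 12.7 in DEL. Their part in the transporter effects was not tested.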

How the data were processed

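Liver RNA was hybridised to Affymetrix arrays, 1 mouse per array. The authors deposited log2 expression values, made by RMA (affy 1.44.0, R 3.1.2) per the submitters' processing notes. The genome build and probe-set definitions were not stated there. Symbols came from the platform annotation, which gave 1 symbol for 20405 features and none for 710. All 21115 features were fitted as deposited, with no filter or rescaling, in limma 3.58.1 (R 4.3.3) with 1 mean for each of 15 groups over 60 arrays. Effects are log2 differences ± SE, and tests are two-sided with Benjamini-Hochberg adjustment over all features within a contrast. The number of arrays limits precision. The model was tested on simulated data with known changes.

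Members described in full were called in at least 1 line with an effect of 1 or more in size. Others were named as the 6 highest by mean, those called between lines, and those nearest that size. Related lists name some of the called effects, not always the largest, and, chosen after their values were seen, a few further genes. The members and lists were chosen with earlier results of these data known. Alternatives were quantile normalization, median centring, a level filter, another variance prior, own-line fits, a replicate block, 4 arrays left out and each array left out. Promoter windows are from RefSeq, GRCm38.p6.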

Additional observations from a re-analysis of the deposited data

Results flagged for a closer look

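Array values far from the other arrays of their group were looked for with the 12 members described in full, in groups of 4 or 5 arrays. Of the 144 combinations of member and group, 13 values were found by the gap to the nearest array against the range of the group. Chance alone gives about 1 in 20 for a single combination, but the combinations share arrays and are not independent. Of these, 6 were on rWT TCDD 500 replicate 4, 1 of the 4 arrays that go against the male label. Its log2 values were Slc3a2 10.9 (the other 3 between 12.1 and 12.2), Slc7a1 5.21 (the other 3 between 6.72 and 6.83), Slc1a5 6.49 (the other 3 between 7.87 and 8.07), Slc38a1 5.22 (the other 3 between 5.99 and 6.15), Slc6a8 7.30 (the other 3 between 8.59 and 8.79) and Slc6a9 9.06 (the other 3 between 11.0 and 11.3). Slc3a2 stood at 10.7 on INS TCDD 1000 replicate 1, where the other arrays of the group lay between 11.1 and 11.2. Slc7a6 read 4.36 on INS corn oil replicate 3, where the other arrays of the group lay between 3.60 and 3.73. Slc7a7 stood at 7.14 on DEL TCDD 125 replicate 1, where the other arrays of the group lay between 8.14 and 8.25. Slc43a1 read 6.88 on INS TCDD 125 replicate 3, where the other arrays of the group lay between 7.67 and 7.80. Slc43a1 stood at 6.49 on INS TCDD 500 replicate 2, where the other arrays of the group lay between 7.51 and 7.61. Slc43a2 read 5.94 on INS TCDD 1000 replicate 1, where the other arrays of the group lay between 6.51 and 6.73. Slc6a8 stood at 7.89 on DEL corn oil replicate 5, where the other arrays of the group lay between 7.05 and 7.26. 

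TCDD effects that differed between lines, by the test of the difference itself (limma, adjusted p under 0.05), are given here as log2 differences. For INS minus rWT, 16 members were negative: Slc3a2 (-0.69), Slc7a6 (-2.46), Slc7a7 (-0.77), Slc7a8 (-2.02), Slc7a1 (-1.34), Slc7a4 (-0.41), Slc1a5 (-1.28), Slc38a1 (-1.03), Slc38a10 (-0.58), Slc43a2 (-0.94), Slc43a3 (-0.87), Slc6a6 (-0.91), Slc6a8 (-1.13), Slc6a9 (-0.91), Slc36a2 (-0.73) and Slc36a4 (-0.60). The 6 positive ones were Slc38a3 (0.97), Slc43a1 (1.28), Slc6a12 (0.86), Slc6a16 (0.58), Slc1a3 (0.37) and Slc1a7 (0.47). In the fit without the 4 arrays, Slc7a4, Slc6a9, Slc6a16 and Slc1a3 were no longer called for INS minus rWT, and Slc38a2 (-0.70), Slc6a21 (0.38) and Slc36a1 (1.05) were. For INS minus DEL, 10 were negative: Slc7a6 (-1.49), Slc7a7 (-1.23), Slc7a8 (-1.95), Slc7a1 (-0.94), Slc1a5 (-1.30), Slc38a1 (-1.09), Slc43a2 (-1.17), Slc43a3 (-0.57), Slc1a1 (-1.08) and Slc36a4 (-0.49). The 3 positive ones were Slc38a3 (0.53), Slc38a4 (0.42) and Slc43a1 (1.21). The 1 member that differed for DEL minus rWT was Slc1a3, at 0.62.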

How the results depend on the processing

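Of the effects of the 12 members described in full and of Slc7a2 in the 3 lines, 1 changed its side of the threshold under any alternative run: Slc7a2 in rWT, which without the 4 arrays was -0.43 and no longer called. The level filter leaves out Slc7a6 and Slc38a1, so they have no value there. Counts of members called moved by over 1.5 times as follows. Centring arrays on their medians gave 42 in DEL and 24 for INS minus DEL, beside 13835 and 6423 of the 21115 features. For DEL minus rWT, the count of 1 became 0 with the level filter, which leaves out Slc1a3, and 0 when each pair of lines was fitted alone. Without the 4 arrays it was 1 again, but with Slc7a6 in place of Slc1a3. The count of 2 for TCDD 1000 in INS, chosen after seeing the data, became 1 (Slc7a2) in the fit of that line alone. Leaving out 1 array at a time gave 32 to 38 in rWT, 23 to 33 in DEL, 1 to 1 in INS, 18 to 24 for INS minus rWT and 10 to 14 for INS minus DEL. For DEL minus rWT it gave 1 to 3, with 2 (Slc1a3 and Slc7a4) without DEL corn oil replicate 3 and 3 (Slc1a3, Slc38a3 and Slc7a6) without rWT TCDD 500 replicate 4. Slopes gave 0 to 0 in rWT and INS and 0 to 1 in DEL, with 1 (Slc1a1) without DEL TCDD 125 replicate 3. TCDD 1000 in INS gave 1 to 2, with 1 (Slc7a2) without INS corn oil replicate 2, 3 or 4 or TCDD 1000 replicate 2, 3, 4 or 5. Where rWT TCDD 1000 was left with 1 array, that array was assumed to vary like the other groups.

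Replicate numbers were checked for pairing: over 108 same-numbered pairs of arrays within a line, the correlation of deviations from group means ran from -0.59 to 0.49 with a median of 0.08, and 21 of 60 arrays correlated best with their own number. The numbers were taken as names. With a replicate block the counts were 33 in rWT, 28 in DEL, 1 in INS, 1 for DEL minus rWT, 20 for INS minus rWT, 15 for INS minus DEL, 2 for TCDD 1000 in INS and 0 for each slope.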
